A study of Mus musculus with 6 samples.

Results

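Laminins are secreted basement membrane proteins made of 1 alpha, 1 beta and 1 gamma chain, and the 9 genes described here, out of 55298 in the files, encode 5 alpha chains (Lama1 to Lama5), 3 beta chains (Lamb1 to Lamb3) and the gamma chain of most laminins (Lamc1). The genes were taken by symbol and not by their values, and all 9 had signal in every library. RNA-seq was done on cancer-associated fibroblasts from orthotopic lung tumors of wt C57BL/6 mice over 8 weeks old. apCAFs 1, 2 and 3 were the MHC class II-positive cells (MHCII+, n = 3) and nonapCAFs 4, 5 and 6 the class II-negative cells (MHCII-, n = 3), sorted side by side from pooled tumors in 3 separate experiments. Cells of both groups were gated as large, PDPL+ (as the labels spell it) and PDGFRa+, and negative for CD45, CD31, EPCAM and mCherry. Because tumors were pooled, a library does not stand for 1 animal, and the labels do not say which libraries share an experiment.

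The chains assemble into a trimer inside the cell before secretion, and the alpha chain carries most of the sites that integrins and dystroglycan bind. Alpha chains are used by tissue: the Lama5 product is typical of epithelial and vascular basement membranes in the adult lung, the Lama4 product of vessels and mesenchyme, the Lama2 product of muscle and peripheral nerve, the Lama1 product of the embryo, and the Lama3 product, joined to the Lamb3 chain, of the anchoring membrane under epithelia. Most trimers contain the Lamc1 chain with either the Lamb1 or the Lamb2 chain.

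Values are the authors' normalized counts, rounded to whole numbers, with totals of 77960347 to 93330791 per library, and the sequencing depth behind them is unknown. Library pairs were not equally close: for genes averaging 100 or more, the log2 ratio between libraries had an SD of 0.238 for apCAFs 1 and 2 and 0.246 for nonapCAFs 4 and 5, against 0.687 to 0.708 between apCAFs 3 and the other apCAFs libraries. The 8 fibroblast markers summed to 1534465 to 2492866 in apCAFs and 568587 to 625030 in nonapCAFs, most of it from the collagen genes Col1a1 and Col1a2. Of these markers 4 of 8 were called higher, and Lum lay below nonapCAFs in every apCAFs library without passing the test. The 7 leukocyte markers summed to 10447, 9919 and 1322 in apCAFs 1, 2 and 3, against 710, 1362 and 509 in nonapCAFs 4, 5 and 6, with 0 of 7 called. Most of the sum in apCAFs 1 and 2 was 1 gene, Lyz2, with 9898, 9470 and 640 in apCAFs and 470, 1028 and 226 in nonapCAFs. Ptprc, the CD45 gene, overlapped (24, 22 and 65 in apCAFs, 2, 29 and 34 in nonapCAFs), and 2 of the 7, Cd68 and Cd3e, lay higher without overlap. The 8 endothelial markers, 0 of them called, summed to 966 to 1512 in apCAFs and 1248 to 1458 in nonapCAFs. The 9 mesothelial markers summed to 40331 to 51979 in apCAFs and 5277 to 6001 in nonapCAFs, with 7 of 9 called higher, and the 10 pericyte and smooth muscle markers to 39451 to 41504 in apCAFs and 10216 to 14308 in nonapCAFs, with 4 of 10 called higher. Of the latter, 8 of 10 lay higher without overlap, but the pericyte marker Rgs5 ran the other way with overlap. It had 13, 24 and 53 in apCAFs 1, 2 and 3 and 76, 31 and 227 in nonapCAFs 4, 5 and 6. Of all genes, 3.91% were called higher. The part of such cells in the values below was not tested, and in bulk libraries fewer cells of a type and less RNA per cell cannot be told apart.

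Of the alpha chains, Lama4 rose 3.15-fold in apCAFs, while Lama5, the most abundant alpha chain of nonapCAFs, lay lower in every apCAFs library without passing the test. Lama1, Lama2, Lama3, Lamb2 and Lamb3 lay above nonapCAFs in every apCAFs library, again without passing, and Lamb1 and Lamc1 overlapped between the groups. In limma's moderated test on log2(value + 1), Benjamini-Hochberg adjusted over the 36443 genes above 0 in at least 1 library and called at 0.05, 1 of the 9 chains was called higher, against 3.91% of all genes, and 0 were called lower, against 0.486% of all genes (4.4% in either direction). Among the 17829 genes averaging 100 or more, which take in all chains but Lamb3, 5.87% were called higher and 0.0673% lower. At an unadjusted limma p under 0.05 there were 6 chains higher, against 13.1% of all genes, and 0 lower, against 6.19%. The 9 chains had a median log2 fold change of 1.09, against -0.04 over all genes tested. Groups did not overlap for 6 chains higher in apCAFs, against 17.1% of all genes, and for 1 chain lower, against 15.4%. In the authors' deposited table the 6 chains that did not overlap and lay higher had a DESeq2 adjusted p under 0.05, against 20.6% of its genes called higher, and 0 chains were called lower, against 9.77%.

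**Figure D1:**
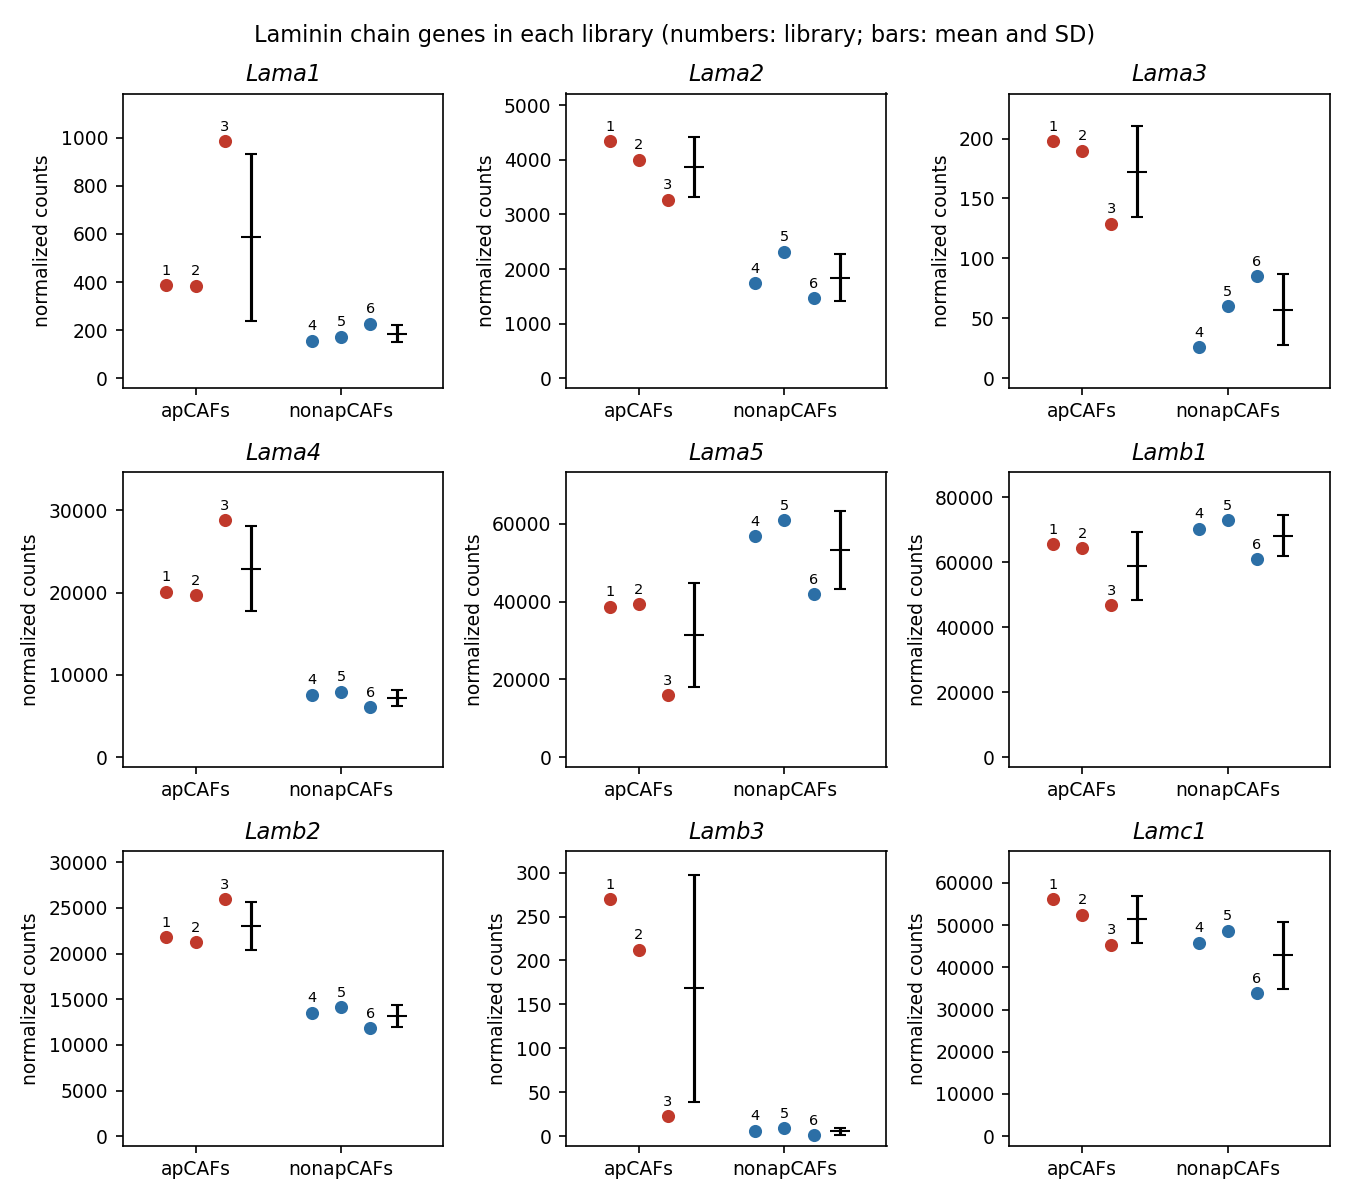
Normalized counts (vertical axis, linear) of the 9 laminin chain genes in apCAFs 1 to 3 (red, left) and nonapCAFs 4 to 6 (blue, right); black bars give the mean and SD. Lama4 lies at 19686 or more in apCAFs and at 7976 or less in nonapCAFs, and Lama5 at 39323 or less in apCAFs and at 41889 or more in nonapCAFs.

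Lama4 (ENSMUSG00000019846, chromosome 10, 38965515 to 39110188, plus strand, mm10) encodes the short alpha chain of vessel and mesenchymal basement membranes. Its normalized counts were 20128, 19686 and 28824 in apCAFs 1, 2 and 3, against 7579, 7976 and 6041 in nonapCAFs 4, 5 and 6. Every apCAFs library stood above every nonapCAFs library, and apCAFs 3 was the highest. The means were 22879 ± 5153 in apCAFs and 7199 ± 1022 in nonapCAFs (SD, n = 3 each), a log2 fold change of 1.66 (SE 0.22, 95% CI 1.09 to 2.22, limma adjusted p = 0.025). Leaving out any 1 library kept the log2 fold change between 1.48 and 1.75, but the call was lost in limma without apCAFs 1 (adjusted p = 0.0723), apCAFs 2 (0.0675), nonapCAFs 4 (0.0924), nonapCAFs 5 (0.0786) or nonapCAFs 6 (0.0653) and held without apCAFs 3 (0.0272). The authors' deposited table gives Lama4 a log2 fold change of 1.67 (DESeq2 adjusted p = 1.12e-14).

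Lama5 (ENSMUSG00000015647, chromosome 2, 180176373 to 180225859, minus strand) encodes the large alpha chain found under lung epithelium and endothelium. It had 38660, 39323 and 15858 normalized counts in apCAFs 1, 2 and 3, against 56787, 60959 and 41889 in nonapCAFs 4, 5 and 6. The groups did not overlap, but the gap between apCAFs 2 and nonapCAFs 6 was small and apCAFs 3 stood far below the other libraries. The means were 31280 ± 13360 in apCAFs and 53212 ± 10025 in nonapCAFs, a log2 fold change of -0.86 (SE 0.42, 95% CI -1.92 to 0.19, limma adjusted p = 0.315). Without apCAFs 3 the log2 fold change was -0.43. The authors' deposited table gives -0.77 (DESeq2 adjusted p = 0.0713).

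Lama2 (ENSMUSG00000019899, chromosome 10, 26980036 to 27619758, minus strand) encodes the alpha chain that links muscle and Schwann cells to their basement membrane. It had 4347, 4006 and 3269 normalized counts in apCAFs 1, 2 and 3, against 1745, 2320 and 1469 in nonapCAFs 4, 5 and 6. All apCAFs libraries were above all nonapCAFs libraries, and here apCAFs 3 was the lowest of its group (log2 fold change 1.09, SE 0.23, 95% CI 0.50 to 1.67, limma adjusted p = 0.0724). Of its exon bases, 3.86% are shared with the antisense gene Gm48084. The 4 Schwann cell markers, 0 of them called, summed to 2352 to 3802 in apCAFs and 1540 to 2272 in nonapCAFs, but their most specific members gave little signal: Sox10 was at 0 to 2 in apCAFs and 0 to 9 in nonapCAFs, and Cdh19 was at 0 in every apCAFs library and at 0 to 5 in nonapCAFs.

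Lama1 (ENSMUSG00000032796, chromosome 17, 67697259 to 67822647, plus strand), the alpha chain gene of early embryonic basement membranes, was faint. It had 388, 385 and 987 normalized counts in apCAFs 1, 2 and 3, against 156, 173 and 226 in nonapCAFs 4, 5 and 6. apCAFs 3 was the highest, as for Lama4, and the groups did not overlap (log2 fold change 1.53, SE 0.43, 95% CI 0.44 to 2.61, limma adjusted p = 0.139). Without apCAFs 3 the log2 fold change of Lama1 was 1.08.

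Of the beta chains, Lamb2 lay higher in every apCAFs library and Lamb1 overlapped. Lamb1 (ENSMUSG00000002900, chromosome 12, 31265234 to 31329644, plus strand), the widely used beta chain, had 65562, 64235 and 46776 normalized counts in apCAFs 1, 2 and 3, against 70279, 73023 and 60983 in nonapCAFs 4, 5 and 6. The ranges overlapped, with apCAFs 3 lowest (log2 fold change -0.22, SE 0.19, 95% CI -0.71 to 0.27, limma adjusted p = 0.518). Lamb2 (ENSMUSG00000052911, chromosome 9, 108479736 to 108490530, plus strand), the beta chain of neuromuscular, kidney glomerular and vascular basement membranes, had 21814, 21215 and 25973 in apCAFs 1, 2 and 3, against 13523, 14150 and 11830 in nonapCAFs 4, 5 and 6. The Lamb2 groups were well apart, with apCAFs 3 highest and nonapCAFs 6 lowest. The Lamb2 means were 23001 ± 2591 in apCAFs and 13168 ± 1200 in nonapCAFs (log2 fold change 0.80, SE 0.16, 95% CI 0.40 to 1.20, limma adjusted p = 0.0611), and the authors' deposited table lists a DESeq2 adjusted p of 5.36e-08.

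Lamc1 (ENSMUSG00000026478, chromosome 1, 153218922 to 153332786, minus strand), the gamma chain shared by nearly all of these trimers, had 56202, 52470 and 45384 normalized counts in apCAFs 1, 2 and 3, against 45802, 48720 and 33900 in nonapCAFs 4, 5 and 6. The ranges overlapped (log2 fold change 0.27, SE 0.20, 95% CI -0.23 to 0.78, limma adjusted p = 0.499). The interval of Lamc1 runs across 0, and the missed threshold does not show that the groups are alike.

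**Figure D2:**
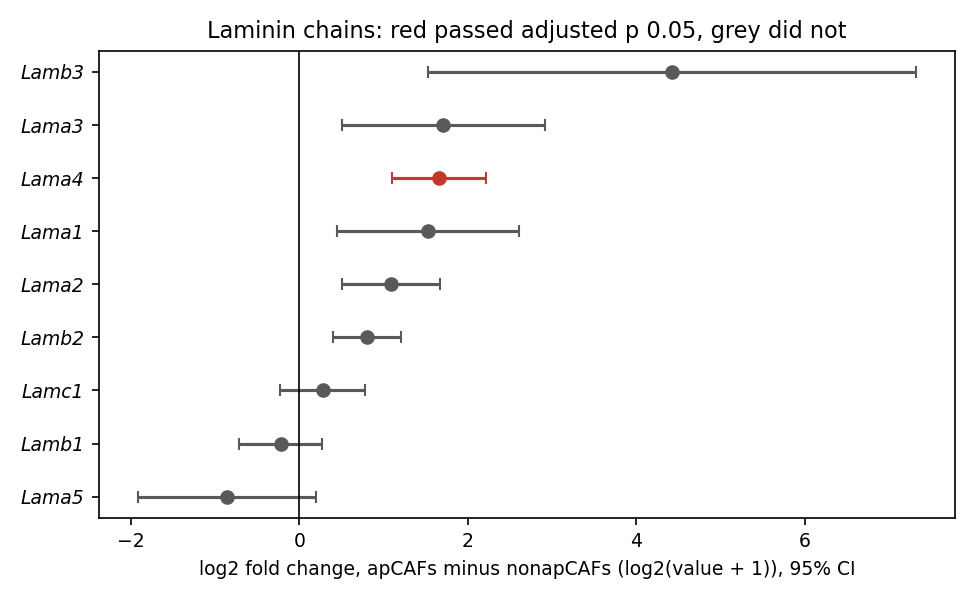
Log2 fold change (horizontal axis, apCAFs minus nonapCAFs on the log2(value + 1) scale) of each laminin chain with its 95% confidence interval from limma. Lama4 alone, in red, passed the adjusted threshold, and the intervals of Lamc1, Lamb1 and Lama5 include 0.

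Lama3 and Lamb3, whose products pair in the epithelial trimer, were the faintest members. Lamb3 (ENSMUSG00000026639, chromosome 1, 193207699 to 193343878, plus strand) had 270, 212 and 23 normalized counts in apCAFs 1, 2 and 3, against 6, 9 and 1 in nonapCAFs 4, 5 and 6. apCAFs 1 and 2 carried nearly all of the signal, and apCAFs 3 was near the nonapCAFs range (log2 fold change 4.42, SE 1.15, 95% CI 1.53 to 7.32, limma adjusted p = 0.116). Without apCAFs 3 Lamb3 was called (log2 fold change 5.53, limma adjusted p = 0.0449). It was not called without any other library, with a log2 fold change of 3.78 without apCAFs 1, 3.96 without apCAFs 2 and 3.74 without nonapCAFs 6 (limma adjusted p = 0.228, 0.242 and 0.257). Lama3 (ENSMUSG00000024421, chromosome 18, 12333819 to 12583013, plus strand) had 198, 190 and 129 in apCAFs 1, 2 and 3, against 26, 60 and 85 in nonapCAFs 4, 5 and 6. Its groups were apart but both were low (log2 fold change 1.71, SE 0.48, limma adjusted p = 0.136), and 1.83% of its exon bases are shared with the antisense gene Gm29200.

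Epithelial marker genes differed in how they ran beside Lamb3. Epcam, the surface protein used to exclude epithelial cells, had 181, 209 and 21 normalized counts in apCAFs 1, 2 and 3, against 13, 3 and 5 in nonapCAFs 4, 5 and 6. Cdh1, the epithelial cadherin gene, had 786, 602 and 111 in apCAFs and 33, 36 and 2 in nonapCAFs. The 10 epithelial markers summed to 11734 to 19651 in apCAFs, with apCAFs 3 lowest, and to 7319 to 10569 in nonapCAFs. Cldn7 and Cldn18 were at 0 in apCAFs 3. The 2 of 10 called higher were highest in apCAFs 3, where Lamb3 was lowest of its group: Krt19, a keratin gene also on the mesothelial list, had 3451, 3410 and 3805 in apCAFs 1, 2 and 3, against 205, 203 and 124 in nonapCAFs 4, 5 and 6, and Cldn3, a tight junction gene, had 1802, 1550 and 2603 in apCAFs, against 48, 84 and 19 in nonapCAFs. The 9 alveolar type II markers, 0 of them called, summed to 97847, 81007 and 8969 in apCAFs 1, 2 and 3, against 10119, 10234 and 9018 in nonapCAFs 4, 5 and 6. The 4 basal epithelial markers, also with 0 called, summed to 1224 to 1431 in apCAFs and 52 to 187 in nonapCAFs. Of these, 3 of 4 (Krt14, Trp63 and Krt15) lay higher without overlap, against 17.1% of all genes. Most of the sum was Krt14, with 1303, 1321 and 1062 in apCAFs 1, 2 and 3, against 174, 75 and 5 in nonapCAFs 4, 5 and 6. The basal keratin gene Krt5 overlapped, at 0 to 15 in apCAFs and 2 to 9 in nonapCAFs. The 8 alveolar type I markers, 4 of them called higher, summed to 18149 to 18299 in apCAFs and 9257 to 11414 in nonapCAFs. The part of epithelial cells in the Lamb3 and Lama3 values was not tested.

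**Figure D3:**
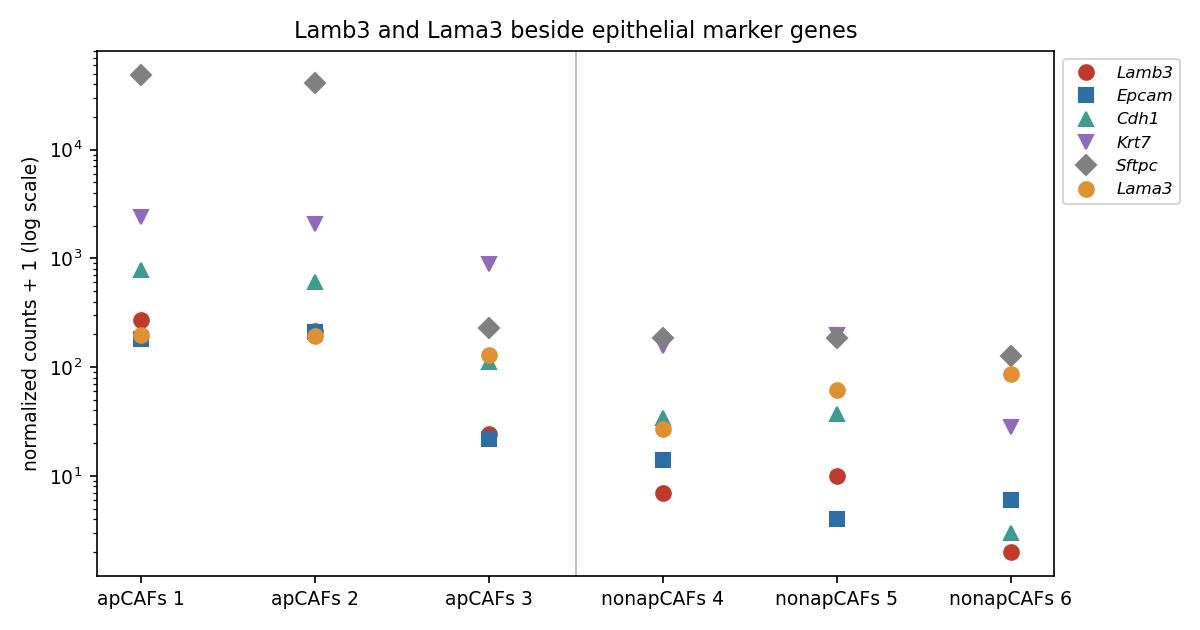
Normalized counts plus 1 (vertical axis, log scale) of Lamb3 and Lama3 beside Epcam, Cdh1, Krt7 and Sftpc in each library, apCAFs left of the grey line and nonapCAFs right of it. Lamb3 reads 270 and 212 in apCAFs 1 and 2 and 23 in apCAFs 3, and Epcam 181, 209 and 21 in the same libraries.

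Divided by merged exon length, so that chains could be set beside each other, the levels in apCAFs ran from Lamc1 (6208 ± 664 normalized counts per kb) and Lamb1 (5935 ± 1057) through Lamb2 (3782 ± 426), Lama5 (2747 ± 1173) and Lama4 (1896 ± 427) to Lama2 (237.1 ± 33.7), Lama1 (60.6 ± 35.8), Lamb3 (25.5 ± 19.5) and Lama3 (16.0 ± 3.5). The ranges of mean ± SD overlapped in apCAFs between Lamc1 and Lamb1, Lamb2 and Lama5, Lama5 and Lama4, Lama1 and Lamb3, and Lamb3 and Lama3. In nonapCAFs the order was Lamb1 (6866 ± 636 per kb), Lamc1 (5175 ± 949), Lama5 (4673 ± 880), Lamb2 (2165 ± 197), Lama4 (596.5 ± 84.7), Lama2 (112.9 ± 26.6), Lama1 (19.1 ± 3.8), Lama3 (5.30 ± 2.76) and Lamb3 (0.806 ± 0.611). Of these neighbours, Lamc1 and Lama5 had overlapping ranges in nonapCAFs. With the length of the longest transcript in place of merged exons, Lamb1 (10176 ± 1813 per kb) came before Lamc1 (6737 ± 721) and Lama4 (3784 ± 852) before Lama5 (2747 ± 1173) in apCAFs, while the order in nonapCAFs was the same.

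The share of a chain within its family in 1 library does not depend on how libraries are scaled. Lama4 made up 31.0%, 30.3% and 58.3% of the alpha chain signal per kb in apCAFs 1, 2 and 3, against 10.9%, 10.7% and 11.6% in nonapCAFs 4, 5 and 6. Lama5 made up 63.0%, 64.1% and 34.0% in apCAFs and 86.9%, 86.6% and 85.5% in nonapCAFs, so that in apCAFs 3 Lama4 exceeded Lama5 per kb. Lama2 held 4.79% ± 0.21 of the alpha signal in apCAFs and 2.08% ± 0.22 in nonapCAFs, while Lama1 held at most 2.49% and Lama3 at most 0.342% in any library. Lamb2 made up 35.0%, 34.9% and 47.5% of the beta chain signal in apCAFs, against 23.9%, 24.0% and 24.0% in nonapCAFs. The nonapCAFs libraries were close to each other in both ratios, and the spread among apCAFs came from apCAFs 3. These shares are a description, with no test.

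The share levels depend on the gene model used for length. With the length of the longest transcript in place of all exons, Lama4 held 54.5% ± 15.2 of the alpha signal in apCAFs and 19.7% ± 0.8 in nonapCAFs, and Lamb2 29.0% ± 6.3 of the beta signal in apCAFs and 16.6% ± 0.1 in nonapCAFs; the groups did not overlap for either gene model. Summed over the 5 alpha chains, the merged-exon levels were 4095 to 5387 normalized counts per kb in apCAFs and 4300 to 6179 in nonapCAFs. The 3 beta chains summed to 8991 to 10239 per kb in apCAFs and 8095 to 9691 in nonapCAFs. Both family sums overlapped between the groups. The gamma chain genes Lamc1 and Lamc3 together summed to 6335 to 7093 per kb in apCAFs and 4162 to 5904 in nonapCAFs, without overlap. Unlike a share, this gap depends on how libraries are scaled, and Lamc1 alone overlapped. Library totals were 89881929 to 93330791 in apCAFs and 77960347 to 84259822 in nonapCAFs.

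**Figure D4:**
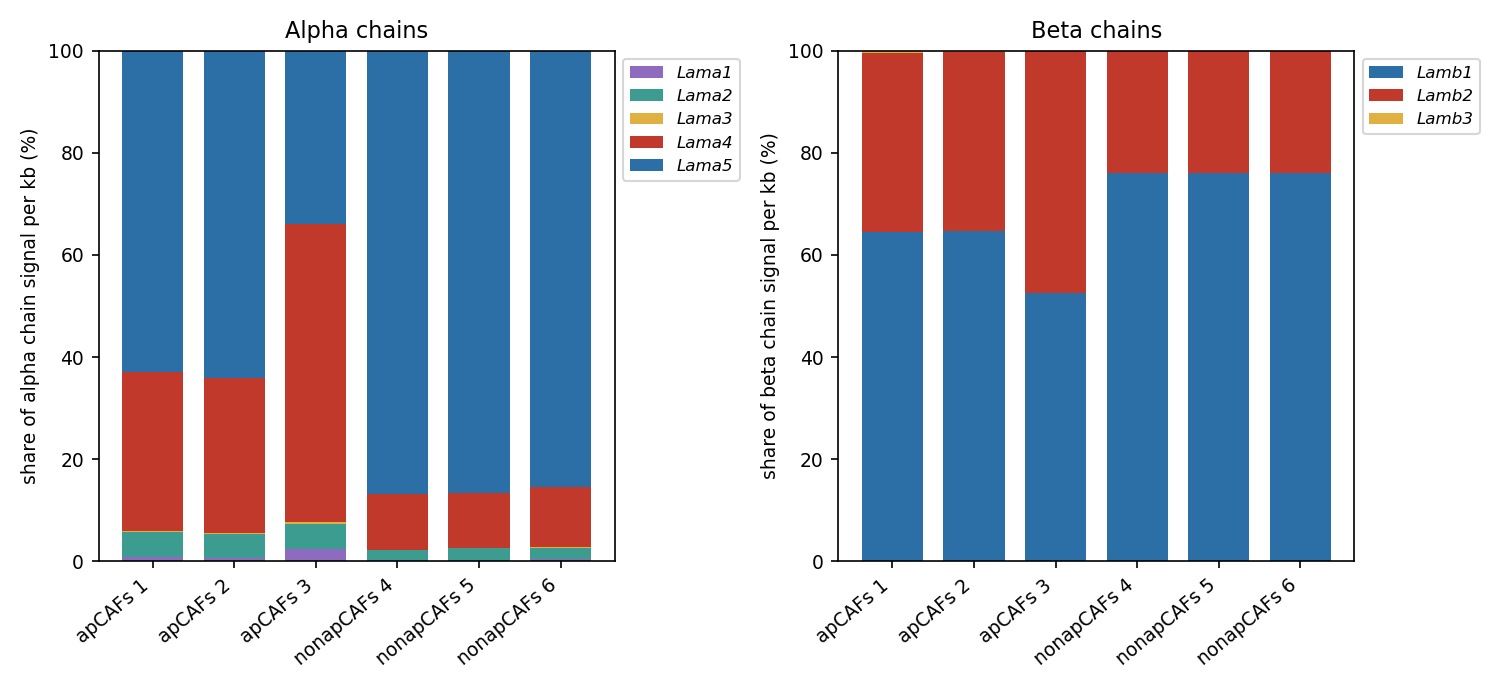
Share of the alpha chain signal (left, percent of the sum of Lama1 to Lama5 per kb of merged exons) and of the beta chain signal (right, Lamb1 to Lamb3) in each library, with apCAFs 1 to 3 left of nonapCAFs 4 to 6. Lama4 holds 31.0%, 30.3% and 58.3% in apCAFs and 10.9%, 10.7% and 11.6% in nonapCAFs.

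RefSeq promoter entries (GRCm38.p6) were found for 5 of the 9 genes: Lama2, Lama5, Lamb1, Lamb2 and Lamb3. The 250 bases before the start are shown for the genes on either side of the alpha and beta chain shares, Lama2 and Lamb2, which lay higher in every apCAFs library, and Lama5 and Lamb1, which did not. They run 5′ to 3′ on the strand of the gene, and capitals mark the GC box GGGCGG or its reverse complement.
Lama2 (chr10:27616943-27617192, minus strand): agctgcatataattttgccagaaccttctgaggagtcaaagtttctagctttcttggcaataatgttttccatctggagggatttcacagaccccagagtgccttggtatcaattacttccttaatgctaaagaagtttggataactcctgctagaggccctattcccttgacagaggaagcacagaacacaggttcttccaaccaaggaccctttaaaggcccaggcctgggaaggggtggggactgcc
Lamb2 (chr9:108479612-108479861, plus strand): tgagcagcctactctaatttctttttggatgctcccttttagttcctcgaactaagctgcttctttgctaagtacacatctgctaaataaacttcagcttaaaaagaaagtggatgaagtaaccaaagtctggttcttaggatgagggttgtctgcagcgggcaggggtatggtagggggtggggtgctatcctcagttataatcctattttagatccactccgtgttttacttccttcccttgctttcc
Lama5 (chr2:180225860-180226109, minus strand): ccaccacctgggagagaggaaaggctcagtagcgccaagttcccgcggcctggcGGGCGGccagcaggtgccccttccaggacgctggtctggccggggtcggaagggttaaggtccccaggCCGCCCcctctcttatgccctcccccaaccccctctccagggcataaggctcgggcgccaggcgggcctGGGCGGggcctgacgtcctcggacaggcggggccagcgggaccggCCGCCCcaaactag
Lamb1 (chr12:31265043-31265292, plus strand): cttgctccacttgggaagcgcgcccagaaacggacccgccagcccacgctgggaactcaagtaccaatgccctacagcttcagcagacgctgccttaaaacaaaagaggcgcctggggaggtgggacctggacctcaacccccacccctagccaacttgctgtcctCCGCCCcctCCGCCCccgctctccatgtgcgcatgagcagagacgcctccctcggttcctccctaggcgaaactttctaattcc
The Lama5 sequence holds 4 GC boxes and the Lamb1 sequence 2, and the Lama2 and Lamb2 sequences hold 0; 32.7% of the 32851 promoter windows of the same length hold at least 1. Their GC content was 72.4% for Lama5, 62.0% for Lamb1, 47.2% for Lama2 and 43.6% for Lamb2, against a median of 52.4% over all windows. The windows at the pair of Lamb3 starts, a gene that also lay higher in every apCAFs library, hold 0 GC boxes at 58.8% and 61.2% GC. Other motifs were searched on both strands. Neither the interferon-stimulated response element (in 2.98% of all windows) nor the AP-1 motif TGANTCA (6.75%) was found in the 4 sequences. The STAT motif TTCNNNGAA (7.02% of all windows) occurred in 1 of them, Lamb2, at position -208 from the start. The TATA box TATAAA (12.4%) and the TEAD motif GGAATG (12.6%) were found in none of the 4 (the TEAD motif is at 1 Lamb3 start), the CCAAT box (33.8%) in Lamb1, and a loose NF-kB pattern (45.8%), which can overlap the GC box, in all 4. These matches describe letters in these windows and no binding. The RefSeq starts of Lama2, Lamb1, Lamb2 and Lamb3 lie inside the gene spans given above, and that of Lama5 at the edge of its span. A gene can therefore have other starts than those shown.

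By likeness of profile, the genes nearest to Lama4 over the 6 libraries were Slc44a1, H2-K1 and Slc16a3, with root-mean-square differences of 0.036, 0.048 and 0.055 in centred log2 values, out of 13214 genes compared. H2-K1 encodes a class I heavy chain and Slc44a1 a choline transporter. Nearest to Lamb2 were Rbbp8, Casp4 and Exoc3l4 (0.027, 0.031 and 0.036), and nearest to Lama2 were Scn2a, Nr4a2 and Fbxo33 (0.092, 0.096 and 0.120). Lamb3 had no close neighbour: the nearest were Cdh1, Mal2 and Krt7, at 0.570, 0.595 and 0.719.

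Among other laminin and netrin genes, 1 of 7 was called higher and 0 lower, against 3.91% and 0.486% of all genes. Their median log2 fold change was 0.25. The called gene was Ntn3, a netrin gene (600.7 ± 42.4 in apCAFs and 315.7 ± 31.1 in nonapCAFs, limma adjusted p = 0.0371). Its call was lost under each of the 4 other scalings and without any 1 library. Without nonapCAFs 6 the 1 call in this list fell on another gene. Ntn1, the guidance cue with a laminin-like end domain, had 30523, 27498 and 12462 in apCAFs 1, 2 and 3, against 38425, 37052 and 31552 in nonapCAFs 4, 5 and 6 (limma adjusted p = 0.358), and Ntng2, a membrane-anchored netrin gene, had 2367, 2161 and 5003 in apCAFs, against 1316, 1217 and 995 in nonapCAFs (limma adjusted p = 0.133). Lamc3, a gamma chain gene named for its size of change after its values were seen, had 1822, 1664 and 5171 in apCAFs 1, 2 and 3, against 98, 88 and 388 in nonapCAFs 4, 5 and 6 (log2 fold change 4.05, SE 0.76, limma adjusted p = 0.0536). apCAFs 3 was again the highest library, and the groups did not overlap.

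Of 15 genes for partners of laminin in the basement membrane, 8 were called higher and 0 lower, against 3.91% and 0.486% of all genes. Their median log2 fold change was 1.22. Nid2, a nidogen that links laminin to collagen IV, was 5.73-fold higher (limma adjusted p = 0.031), with 10499, 9734 and 19527 in apCAFs 1, 2 and 3, against 1716, 1976 and 3121 in nonapCAFs 4, 5 and 6. Its paralog Nid1 had 75847 ± 13301 in apCAFs and 85484 ± 13491 in nonapCAFs (limma adjusted p = 0.629). Of the collagen IV genes, Col4a6 was 7.77-fold and Col4a2 1.85-fold higher (limma adjusted p = 0.0232 and 0.0378), and Col4a4 and Col4a5 were also called. The collagen-binding glycoprotein gene Sparc (3.07-fold), the basement membrane zone collagen gene Col15a1 (2.34-fold) and the fibulin gene Fbln1 (2.72-fold) were called as well. The heparan sulfate proteoglycan genes did not pass: Hspg2 had 93729 ± 6228 in apCAFs and 97005 ± 14298 in nonapCAFs, and Agrn 19848 ± 605 in apCAFs and 19405 ± 1667 in nonapCAFs. With values divided by library totals 3 of the 15 were called, with quantile-normalized or median-centred values also 3, with upper-quartile-centred values 7, and without any 1 library other than apCAFs 3 the number called was 0. Without apCAFs 3 it was 8, and 11 of the 15 were called higher by DESeq2 in the authors' deposited table. Of all genes, 2.88% to 3.83% were called higher under these scalings and 4.45% without apCAFs 3. The share was 0.707% to 1.74% without any 1 other library and 20.6% by DESeq2.

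Genes for laminin receptors and their partners gave 3 of 14 called higher and 0 lower, against 3.91% and 0.486% of all genes. Their median log2 fold change was 0.61. The count was 1 without apCAFs 1 or nonapCAFs 5, 2 without apCAFs 2, nonapCAFs 4 or nonapCAFs 6, and 3 without apCAFs 3, while a variance trend gave 8 higher and 1 lower. Of all genes, 0.707% to 4.45% were called higher without 1 library, and a variance trend called 8.13% higher and 1.34% lower. Bcam, the Lutheran glycoprotein that binds the Lama5 chain, had 4775, 4610 and 5286 in apCAFs 1, 2 and 3, against 205, 247 and 153 in nonapCAFs 4, 5 and 6. Its groups were far apart (24.6-fold, limma adjusted p = 0.00643). Itgb4, the beta subunit of a laminin-binding integrin of epithelia, was 3.53-fold higher (1942 ± 286 in apCAFs and 547.0 ± 62.9 in nonapCAFs, limma adjusted p = 0.0149), and Sspn, a member of the dystroglycan complex, 2.46-fold (limma adjusted p = 0.0269). Itga6, an alpha subunit of laminin-binding integrins named after its values were seen, had 10425, 8905 and 4726 in apCAFs 1, 2 and 3, against 15131, 16275 and 14970 in nonapCAFs 4, 5 and 6 (log2 fold change -1.02, limma adjusted p = 0.181). It is the receptor gene called lower in the authors' deposited table (DESeq2 adjusted p = 0.00426). Itgb1, the common beta subunit, had 62254 to 72199 in apCAFs and 59014 to 68972 in nonapCAFs. Dag1, the dystroglycan gene, had 21787 to 24242 in apCAFs and 14221 to 18118 in nonapCAFs (limma adjusted p = 0.188, authors' DESeq2 adjusted p = 0.00237).

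Enzymes that add the laminin-binding sugar to dystroglycan gave 0 calls among 17 genes in limma, against 3.91% higher and 0.486% lower of all genes. At an unadjusted limma p under 0.05 there were 3, all higher, against 13.1% of all genes higher and 6.19% lower. The authors' deposited table calls 3 higher and 1 lower by DESeq2, against 20.6% and 9.77% of its genes. Groups did not overlap for 4 genes higher and 4 lower, against 17.1% and 15.4% of all genes. The median log2 fold change of the 17 genes was -0.02. The most abundant were B3galnt2 (4360 ± 220 in apCAFs and 5199 ± 139 in nonapCAFs, limma adjusted p = 0.324) and Pomgnt1 (3698 ± 118 in apCAFs and 3815 ± 162 in nonapCAFs, limma adjusted p = 0.847). B3galnt2 lay lower in every apCAFs library and is the gene called lower in the authors' deposited table (DESeq2 adjusted p = 0.0167).

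**Figure D5:**
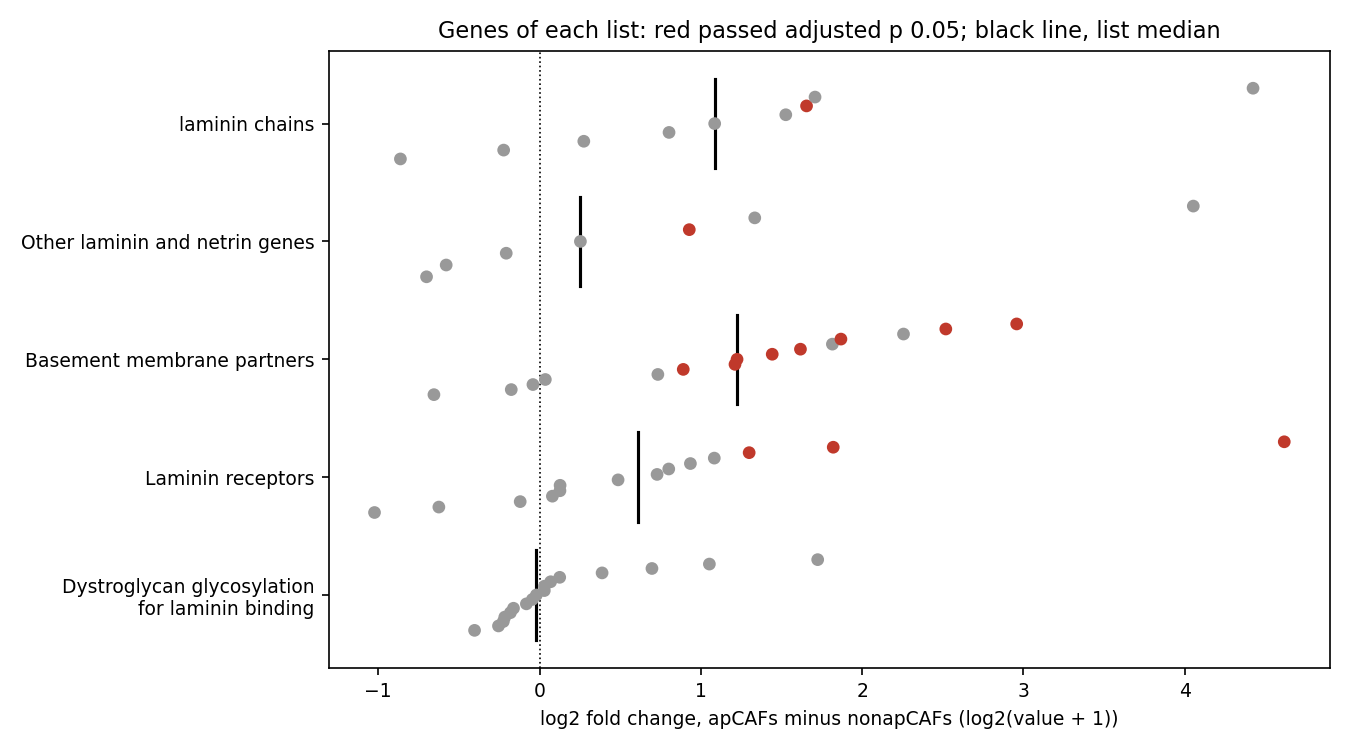
Log2 fold change (horizontal axis, apCAFs minus nonapCAFs on the log2(value + 1) scale) of every gene in the laminin, netrin, basement membrane, receptor and dystroglycan lists; red points passed the adjusted threshold and black lines are list medians. The medians are 1.09 for the laminin chains, 1.22 for the basement membrane partners, 0.61 for the receptors and -0.02 for the dystroglycan enzymes.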

How the data were processed

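RNA-seq libraries were made from total RNA with the NEB Next Ultra RNA kit, per the labels' protocols. Per the submitters' processing notes the authors used Trim Galore, Bowtie2, DESeq2 and the mm10 build. No source used here gives the role of each tool, the counter, the annotation or the strand setting. The deposited value per gene and library is a count normalized by the authors, per the file headers, given as a whole number and handled as a score and not as raw counts, so depth is unknown and no counting interval is given. The authors' deposited table also holds a p-value and adjusted p-value from DESeq2 and a log2 fold change, per the file headers.

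Log2(value + 1) was modelled by group alone with limma 3.58.1 (R 4.3.3) over 36443 of 55298 genes (18855 were at 0 throughout), two-sided, and tested on simulated data. Fold changes understate changes of genes with low values. P-values measure the spread between these libraries, which may in part be technical. Exon and transcript lengths are from GENCODE M21, which holds 55117 of the identifiers, 99.5% of them with identical coordinates. Levels per kb use merged exons.

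The 9 members, the gene lists and the motifs were chosen with earlier results of these data known. Of each list the text names the called genes, up to 6 by smallest p, or the 2 with the highest mean where fewer than 2 were called. Lamc3, Col4a4, Col4a5, Nid1, Hspg2, Agrn, Itga6, Itgb1 and Dag1 were named after their values were seen. Some listed genes are not reported here and are left out of the list counts. Named neighbours in profile are the nearest 3 genes averaging 100 or more, predicted and clone names left out, for the 4 chains with the smallest p. Overlapping genes cannot be told apart without strand. Alternatives covered scaling, pseudocount, filters, a variance trend, libraries left out or averaged and an experiment term.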

Additional observations from a re-analysis of the deposited data

How the results depend on the processing

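All 9 chains kept the sign of their fold change in each of the alternatives run, 23 for Lamb3, which has a mean value under 100, and 24 for each other chain. Log2 fold changes ranged from 1.48 to 1.81 for Lama4, from 0.65 to 0.89 for Lamb2, from 0.93 to 1.26 for Lama2, from 3.61 to 5.53 for Lamb3 and from -1.09 to -0.43 for Lama5, which passed in none (adjusted p 0.0713 to 0.571). Other scalings moved the median of all genes from -0.04 to between -0.14 and -0.19. The number of chains called, all of them higher, was 1 in the reported fit. It was also 1 under each of 4 other scalings and with a pseudocount of 0.5. In these fits 2.88% to 3.91% of all genes were called higher. The number was 3 with a pseudocount of 5 (5.74% of all genes called higher). With a mean value of at least 10 (9.35%) or of at least 100 (13%) it was also 3. It was 5 with a variance trend (8.13%), 6 in the authors' deposited DESeq2 table (20.6%) and 0 with no filter on low values (0.633%). Leaving out 1 library in turn gave 0 to 2 chains called, with 0.707% to 4.45% of all genes called higher. Treating the close pairs (apCAFs 1 with 2, nonapCAFs 4 with 5) as 1 library each gave 0 chains and 0 genes called, with 3 chains at an unadjusted limma p under 0.05. Of the 36443 genes tested, 4700 were at that level, in either direction. The labels do not say which libraries share an experiment, so an experiment term (a replicate block) was fitted under each of the 6 possible pairings: 0 chains and 0 genes were called by limma in each, with 6 chains higher at an unadjusted p under 0.05, 1 chain (Lama5) lower at that level in 2 of the pairings, and Lama4 at an adjusted p of 0.112 to 0.138. Across the pairings, 5316 to 6680 of the 36443 genes were at an unadjusted limma p under 0.05, in either direction. A pairing leaves the fold changes as they are and has fewer degrees of freedom, so these lost calls show no smaller effect. Of 64 alternatives for the chain shares, 9 moved by 1 SD or more, all from using the longest transcript's length. The alternatives that left out 1 of 3 libraries could not have moved that far. The SD was that of the same 3 libraries, so these alternatives do not show that the shares are stable. Without apCAFs 3 the mean Lama4 share of the alpha signal in apCAFs went from 39.9% to 30.6%. Lama3 and Lamb3 are limited by their low values. The depth is unknown.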
